A study of Raphidocelis subcapitata with 270 samples.

Results

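In the green microalga Raphidocelis subcapitata, a standard organism of aquatic ecotoxicology, 100 genes stood lower at the level labelled D1 than in solvent controls across most of the 12 chemicals tested. The genes were chosen by their measured values. Counts were scaled to the library total (CPM), and L was the log2 ratio of mean CPM + 2 at D1 to mean CPM + 2 in the dimethyl sulfoxide (DMSO) controls of that chemical. Of 13429 genes, 9381 had a mean of at least 5 CPM over the 18 DMSO libraries, and the members are the 100 of these with the lowest median L over the 12 chemicals.

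Per the labels, algae in exponential growth were exposed for 24 h at 24 °C under 4300 lux in 96-well plates, and libraries were made from poly(A) RNA with a kit that sequences the 3′ ends of transcripts. There were 7 levels per chemical, D1 to D7, with 3 libraries each, lettered A, B and C. The 12 chemicals fell into 6 control sets, in each of which 2 chemicals shared 3 DMSO libraries. Within a set the chemicals are called first and second by their order in the label of those libraries. The sets, first chemical named first, were 1(2H)-Phthalazinone and Gabapentin (set 1), Metribuzin-DA and 2-tert-butyl-4-methoxyphenol (set 2), Hydrochlorothiazide and 4-chlorophenyl methyl sulfone (set 3), Cetirizine Hydrochloride and Fipronil carboxamide (set 4), Fexofenadine and cis-nonachlordane (set 5), and Metolachlor OA and 3,4-Dichlorophenyl isocyanate (set 6). The series text describes dilutions typically from 66.7 to 0.021 µM. The labels give neither the concentration of a level nor which end of the dilution series is D1, so the levels are named groups without a known direction. Whether the libraries A, B and C came from separate cultures is not stated either, so p-values rest on a spread between libraries that may be technical only.

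The chemicals include drugs, pesticide degradates and other commercial compounds. Gabapentin is an anticonvulsant, cetirizine and fexofenadine are antihistamines, hydrochlorothiazide is a diuretic, and metribuzin is a herbicide that blocks photosystem II, the complex that splits water in photosynthesis. Metolachlor, the parent of Metolachlor OA, is a herbicide that blocks the synthesis of very long chain fatty acids. The files do not pair the gene identifiers with names, so no function is given for any gene below. Gene functions, sequences and genome positions were not used here.

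Library totals ran from 596651 to 1909938 counts (median 1083755, 270 libraries), so 1 CPM was about 1 count. The members were genes of middling abundance, with a median over members of 31.4 for the mean DMSO CPM and a range from 5.24 to 363, against a median of 39.8 over the 9381 genes. They varied more than other genes between libraries of 1 group. The median SD of log2(CPM + 2) within the 90 groups of 3 was 0.55 for the members and 0.31 for the 9381 genes. They also varied more between control sets, with a median range of 1.36 on the log2 scale over the 6 DMSO means, against 0.71. An identifier number next to that of another member was found for 7 members, and no expected number was worked out for this count.

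At D1, the values that chose the members ran from a median L of -1.49 for Rsub_12462 and -1.48 for Rsub_01112 to -0.635 for Rsub_04363, the 100th gene. The first gene outside, Rsub_07753, had a median L of -0.635 as well, so the list has no natural edge. The median over members was -0.77, against -0.0035 for the 9381 genes, and 13 members had a median L below -1. L was below 0 in all 12 chemicals for 64 members, in 11 for 18, in 10 for 13 and in 9 for 5. These counts describe the choice and carry no test.

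Rsub_12462 illustrates the top of the list. In set 6 it stood at 92.1, 72.5 and 55.5 CPM in the DMSO libraries A, B and C, at 36.9, 23.3 and 15.4 CPM at D1 of Metolachlor OA, and at 18.4, 5.43 and 8.67 CPM at D1 of 3,4-Dichlorophenyl isocyanate. Both chemicals lay wholly below DMSO, and the second lay below the first apart from 18.4 CPM in its replicate A. The mean was 73.3 ± 18.3 CPM in DMSO, 25.2 ± 10.9 CPM in the first chemical and 10.8 ± 6.73 CPM in the second (SD, n = 3). In set 4 the same gene was less clear, at 74.9, 32.3 and 20.9 CPM in DMSO and 30.2, 32.5 and 18.004 CPM at D1 of Cetirizine Hydrochloride, where the groups overlapped. Its L was below 0 in 12 of 12 chemicals, from -0.49 in Fexofenadine to -2.55 in 3,4-Dichlorophenyl isocyanate.

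Rsub_01112 was at 82.7, 93.4 and 72.2 CPM in the DMSO libraries of set 3. It was at 43.9, 21.5 and 16.5 CPM at D1 of Hydrochlorothiazide and at 18.7, 5.77 and 5.33 CPM at D1 of 4-chlorophenyl methyl sulfone. All 6 treated libraries were below all 3 DMSO libraries, and L was -1.53 in the first chemical and -2.83 in the second.

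The members highest in DMSO, Rsub_02610 and Rsub_11918, are measured with the most counts. Rsub_02610 was at 419, 304 and 185 CPM in the DMSO libraries of set 1, at 149, 102 and 93.0 CPM at D1 of 1(2H)-Phthalazinone and at 69.2, 71.3 and 54.9 CPM at D1 of Gabapentin. L was -1.38 and -2.18, and neither chemical overlapped DMSO. Rsub_11918 in set 5 was at 317, 377 and 337 CPM in DMSO, at 254, 269 and 273 CPM at D1 of Fexofenadine and at 240, 175 and 211 CPM at D1 of cis-nonachlordane. Both groups lay below DMSO, by a smaller step than in Rsub_02610, with an L of -0.37 and -0.71. At the other end, Rsub_00547, among the 5 members below 0 in only 9 chemicals, was a scarce transcript. It was at 2.96, 0.98 and 4.76 CPM in the DMSO libraries of set 4 and at 5.199, 9.44 and 4.50 CPM at D1 of Cetirizine Hydrochloride, where its L was 0.77.

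**Figure D1:**
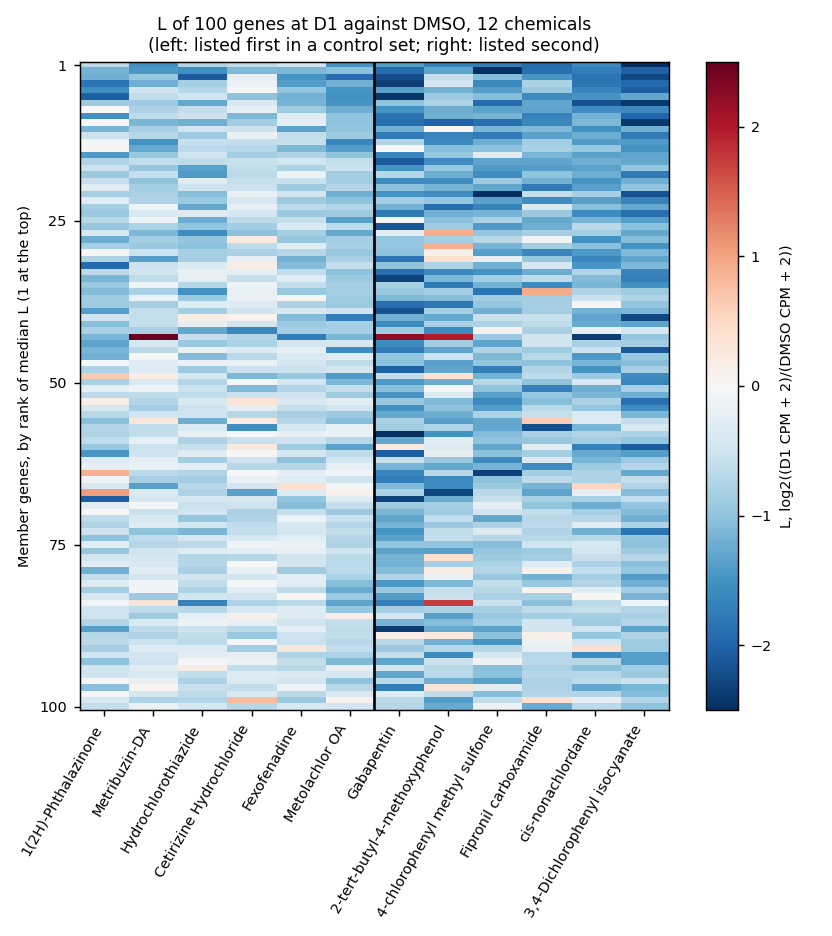
L at D1 (colour, log2 ratio of D1 to DMSO of CPM + 2) of the 100 genes (rows, by rank of median L) in the 12 chemicals (columns, the 6 first chemicals left of the black line and the 6 second right of it). Blue is lower at D1, and the second chemicals hold the deeper blue, with medians from -0.82 to -1.18 against -0.48 to -0.80 in the first. The rule used these values.

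The second chemical of each set had the lower median L in 6 of 6 sets. These are the values that chose the members, and the 2 chemicals share DMSO libraries, so the order is a description. In set 1 the median over members was -0.70 for 1(2H)-Phthalazinone and -1.18 for Gabapentin. In set 2 it was -0.58 for Metribuzin-DA and -0.97 for 2-tert-butyl-4-methoxyphenol. In set 3 it was -0.65 for Hydrochlorothiazide and -1.04 for 4-chlorophenyl methyl sulfone, and in set 4 it was -0.48 for Cetirizine Hydrochloride and -0.82 for Fipronil carboxamide. In set 5 it was -0.57 for Fexofenadine and -0.95 for cis-nonachlordane, and in set 6 it was -0.80 for Metolachlor OA and -1.14 for 3,4-Dichlorophenyl isocyanate. Medians over the 9381 genes ran from -0.088 to 0.029 at D1.

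Below an L of -1 there were 26 members in 1(2H)-Phthalazinone (1.16% of the 9381 genes) and 64 in Gabapentin (3.01%). Metribuzin-DA had 10 (0.746%) and 2-tert-butyl-4-methoxyphenol 48 (4.16%), while Hydrochlorothiazide had 17 (0.533%) and 4-chlorophenyl methyl sulfone 56 (1.47%). Cetirizine Hydrochloride had 9 (0.725%), Fipronil carboxamide 33 (1.07%), Fexofenadine 13 (0.352%) and cis-nonachlordane 48 (1.01%). Metolachlor OA had 29 (0.576%) and 3,4-Dichlorophenyl isocyanate 63 (1.66%). The rule used these values, so nothing is read from the counts.

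The extremes show how far single members departed from the list. In 2-tert-butyl-4-methoxyphenol 12 members stood above 0 at D1, the most of any chemical, and 3,4-Dichlorophenyl isocyanate had 0. The lowest L of all, -2.86, was that of Rsub_04158 in 4-chlorophenyl methyl sulfone, at 0, 0.961 and 2.67 CPM at D1 and 23.0, 30.1 and 10.97 CPM in DMSO. The highest, 2.46, was that of Rsub_04880 in Metribuzin-DA, and it came from 1 library, since D1 was at 1.93, 57.2 and 4.19 CPM and DMSO at 1.08, 1.65 and 3.85 CPM. In Gabapentin the same gene was high in all 3 D1 libraries, at 19.7, 37.3 and 43.4 CPM against 4.58, 6.82 and 5.48 CPM in DMSO. Its lowest L, -2.37 in cis-nonachlordane, also depended on 1 library, replicate B of the DMSO of set 5 at 40.9 CPM beside 2.99 and 9.86 CPM in A and C. Without all replicate C libraries, its median L was 0.28 in place of -0.82, so its place on the list depended on that letter.

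Some of the low values belonged to scarce genes. In 1(2H)-Phthalazinone the lowest L, -2.05, was that of Rsub_02180, at 6.87, 17.1 and 7.82 CPM in DMSO and 2.28, 0 and 0.816 CPM at D1. Gabapentin's lowest, -2.59, was that of Rsub_12662, which was less scarce, at 38.9, 26.4 and 23.5 CPM in DMSO and 4.72, 3.39 and 1.64 CPM at D1. In Fipronil carboxamide it was Rsub_12347, with an L of -2.197, at 14.8, 8.82 and 6.67 CPM in DMSO and 0, 0 and 1.91 CPM at D1. Rsub_13184, lowest in Cetirizine Hydrochloride, had no count in the 3 D1 libraries and 4.93, 3.92 and 3.81 CPM in DMSO. Rsub_09261, lowest in both Hydrochlorothiazide and Metolachlor OA, was better covered. It went from 42.9, 49.4 and 45.7 CPM to 10.97, 6.85 and 10.4 CPM in the former, an L of -2.07, and from 72.0, 138 and 135 CPM to 30.0, 31.1 and 27.4 CPM in the latter, an L of -1.89. These are the values that chose the gene, and no test is given for them.

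Whether the pattern extends to chemicals that took no part in the choice was examined by applying the rule anew without 1 control set at a time, to 10 chemicals and 15 DMSO libraries. The 100 genes this gave were then looked up in the D1 against DMSO test of the 2 chemicals left out. Each such list shared 83 to 90 genes with the members, and 60 genes, all of them members, were on all 6 lists. The test was edgeR's quasi-likelihood test on the counts, with Benjamini-Hochberg adjustment over all genes tested, and a gene is called at an adjusted p under 0.05.

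In every left-out chemical, genes of the list were called lower at D1, at a larger share than among all genes tested. In set 1, 6 genes fell in 1(2H)-Phthalazinone, with 86 of 100 tested and 0.659% of all genes called lower, and 45 fell in Gabapentin, with 79 tested and 6.72% called lower. In set 2, 8 fell in Metribuzin-DA, with 95 tested and 0.532% called lower, and 24 fell in 2-tert-butyl-4-methoxyphenol, with 99 tested and 7.92%. In set 3, 10 fell in Hydrochlorothiazide, with 93 tested and 0.829%, and 39 fell in 4-chlorophenyl methyl sulfone, with 88 tested and 5.12% (24 genes by DESeq2). In set 4, 2 fell in Cetirizine Hydrochloride, with 93 tested and 0.338%, and 23 fell in Fipronil carboxamide, with 90 tested and 2.4%. In set 5, 15 fell in Fexofenadine, with 99 tested and 0.335%, and 29 fell in cis-nonachlordane, with 98 tested and 1.52% (13 genes by DESeq2). In set 6, 30 fell in Metolachlor OA, with 99 tested and 1.04%, and 33 fell in 3,4-Dichlorophenyl isocyanate, with 96 tested and 2.7%.

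The opposite direction was rare. Listed genes rose in Gabapentin (2 genes, with 7.25% of all genes called higher), in 2-tert-butyl-4-methoxyphenol (4 genes, 10.4%) and in 4-chlorophenyl methyl sulfone (1 gene, 4.33%). The other 9 chemicals had 0 listed genes called higher by edgeR or by DESeq2, with 0 to 2 at an unadjusted p under 0.05. Of all genes tested, those called higher were 1.17% in 1(2H)-Phthalazinone, 0.358% in Metribuzin-DA, 0.641% in Hydrochlorothiazide, 0.328% in Cetirizine Hydrochloride and 3.24% in Fipronil carboxamide. They were 0.0836% in Fexofenadine, 1.05% in cis-nonachlordane, 0.562% in Metolachlor OA and 2.78% in 3,4-Dichlorophenyl isocyanate. The median log2 difference of the tested listed genes was -1.26 in Gabapentin, -1.20 in 4-chlorophenyl methyl sulfone and -1.16 in 3,4-Dichlorophenyl isocyanate, and it was nearest 0 in Cetirizine Hydrochloride, at -0.46.

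The number of calls depended on which replicate letters were used. Fits without a letter hold fewer libraries, and the share of all genes called in them is not given here. A fall in the counts below can therefore not be told apart from a loss of power. Without replicate B the numbers called lower fell to 0 of 100 in 6 chemicals, namely 1(2H)-Phthalazinone, Metribuzin-DA, Cetirizine Hydrochloride, Fexofenadine, cis-nonachlordane and 3,4-Dichlorophenyl isocyanate, and to between 1 and 24 in the other 6. Without replicate C they ran from 0 in Cetirizine Hydrochloride to 35 in Gabapentin, and without replicate A from 1 in Cetirizine Hydrochloride to 48 in 3,4-Dichlorophenyl isocyanate. Leaving out replicate A gave more calls in 2-tert-butyl-4-methoxyphenol (38), cis-nonachlordane (43), 3,4-Dichlorophenyl isocyanate (48), 1(2H)-Phthalazinone (11) and Hydrochlorothiazide (11), and fewer in the others. Leaving out only the D1 replicate A of 2-tert-butyl-4-methoxyphenol, the D1 library farthest from its group over all genes, gave 32.

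**Figure D2:**
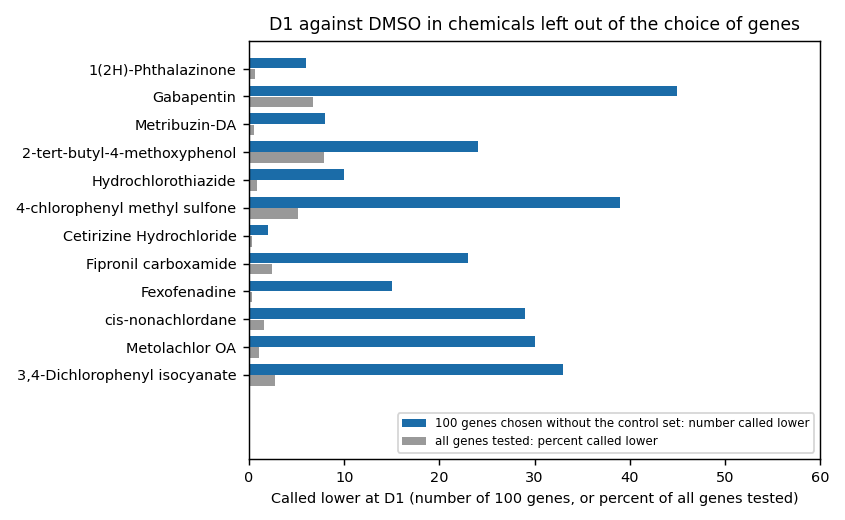
Genes called lower at D1 against DMSO by edgeR in each chemical when the 100 genes were chosen without that chemical's control set (blue bars, number of 100), beside the percentage of all tested genes called lower (grey bars). Blue exceeds grey in each chemical, from 2 against 0.338 in Cetirizine Hydrochloride to 45 against 6.72 in Gabapentin.

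The levels after D1 divided the chemicals by their place in the label. In the 6 first chemicals the members came back to the DMSO level, and in the 6 second chemicals they stayed below it at all 7 levels. In Fexofenadine the median over members was -0.57 at D1, -0.05 at D2, 0.09 at D3 and 0.18 at D5, and the number of members below 0 went from 96 to 57, 33 and 21. In cis-nonachlordane, against the same DMSO libraries, the median was -0.95 at D1, -0.77 at D2, -0.69 at D3, -0.77 at D5 and -0.91 at D7, with 96 to 99 members below 0 at each level. Over the first chemicals the median lay between -0.08 and 0.18 at D4 to D7. Over the second chemicals it lay between -0.34 and -0.92 at D2 to D7. Medians over the 9381 genes stayed between -0.088 and 0.040 at all levels. Every level shares its DMSO libraries with the values that chose the members, so these levels are a description.

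In Gabapentin the median went from -1.18 at D1 to -0.34 at D5 and -0.56 at D7. The same bend appeared in 2-tert-butyl-4-methoxyphenol, with -0.97 at D1, -0.45 at D5 and -0.69 at D7, and in Fipronil carboxamide, with -0.82, -0.44 and -0.67. Metribuzin-DA had no such bend, with -0.58, 0.11 and 0.15. Cetirizine Hydrochloride was the 1 first chemical whose D2 lay no higher than its D1, with medians of -0.51 and -0.48, and there 1 library stood apart, as described next.

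The CPM of the 100 members were summed in each library to show all libraries. The sum ran from 1070 to 9883 over the 270 libraries. In DMSO it was 4163, 3351 and 2639 in set 1 (A, B, C), 6073, 6300 and 5217 in set 2, and 5951, 5645 and 4697 in set 3. It was 5959, 5106 and 4688 in set 4, 7272, 7576 and 6257 in set 5, and 8339, 8080 and 6700 in set 6. Replicate C was thus the lowest in 6 of 6 DMSO groups, and set 1 lay below all the others.

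At D1 of Metolachlor OA the sums were 5076, 4367 and 4020, and at D5 they were 7592, 9433 and 8499. In 3,4-Dichlorophenyl isocyanate they were 4301, 3082 and 3518 at D1 and 7160, 4661 and 3818 at D5, so replicate A stood far above B and C at D5. In Cetirizine Hydrochloride the D2 sums were 4375 in A, 1937 in B and 4250 in C, and replicate B alone lay far below its D1 and D3 neighbours.

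Replicate A had the highest sum in 42 of 42 level groups of the second chemicals, and C the lowest in 37 of 42. In the first chemicals A was highest in 16, B in 25 and C in 1 of 42. D1 lay below D5 of the same letter in 18 of 18 cases in the first chemicals and in 16 of 18 in the second. D7 lay below D5 in 10 of 18 cases in the first chemicals and in 17 of 18 in the second.

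**Figure D3:**
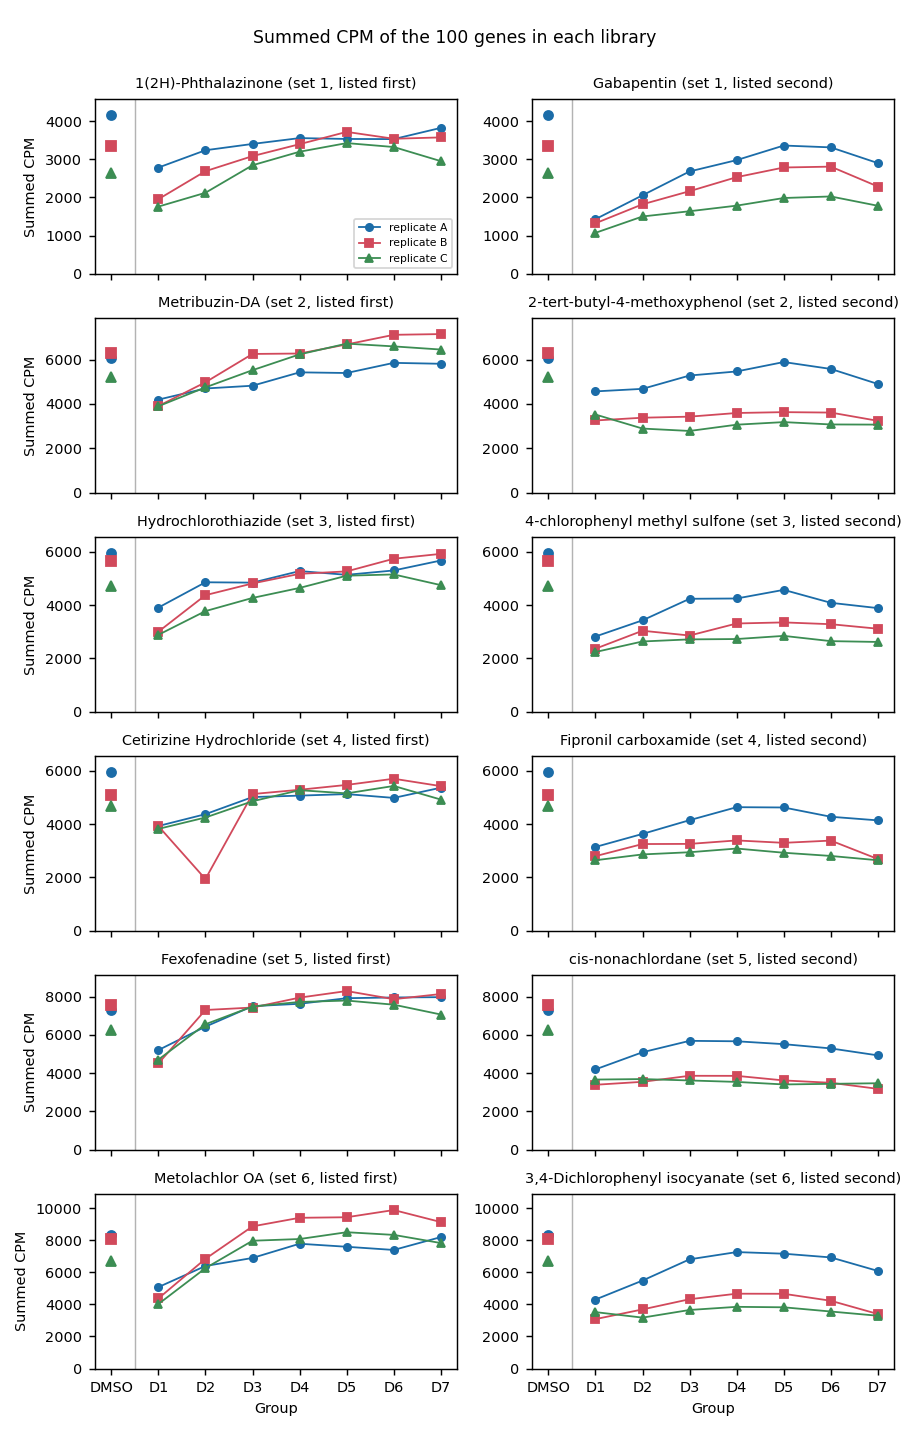
Summed CPM of the 100 genes in every library (y axis from 0), by group (x axis, DMSO then D1 to D7), with 1 panel per chemical, the first chemical of a set on the left and the second on the right, and 1 symbol per replicate letter. The lines rise from D1 in the first chemicals, the second chemicals stay lower with replicate A on top in 42 of 42 groups, and replicate B at D2 of Cetirizine Hydrochloride drops to 1937.

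The members of the top of the list followed the same course. Rsub_12462 in Fexofenadine was at 40.6, 19.6 and 17.6 CPM at D1, at 46.2, 43.0 and 35.9 CPM at D2 and at 47.3, 57.8 and 47.9 CPM at D5, with DMSO at 37.6, 47.1 and 27.3 CPM. In cis-nonachlordane it was at 13.05, 9.02 and 11.3 CPM at D1, at 26.0, 13.7 and 19.1 CPM at D2 and at 24.4, 15.4 and 10.01 CPM at D5. Its D5 libraries were all above the highest DMSO library in the first chemical and all below the lowest in the second.

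Rsub_01112 in Fexofenadine went from 44.5, 33.1 and 22.4 CPM at D1 to 102, 92.9 and 90.7 CPM at D5, with DMSO at 87.2, 88.9 and 50.03 CPM. In cis-nonachlordane it went from 23.8, 23.3 and 16.5 CPM to 47.4, 14.7 and 16.7 CPM. In the second chemical replicate A was higher at D5, B was lower and C was about level.

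**Figure D4:**
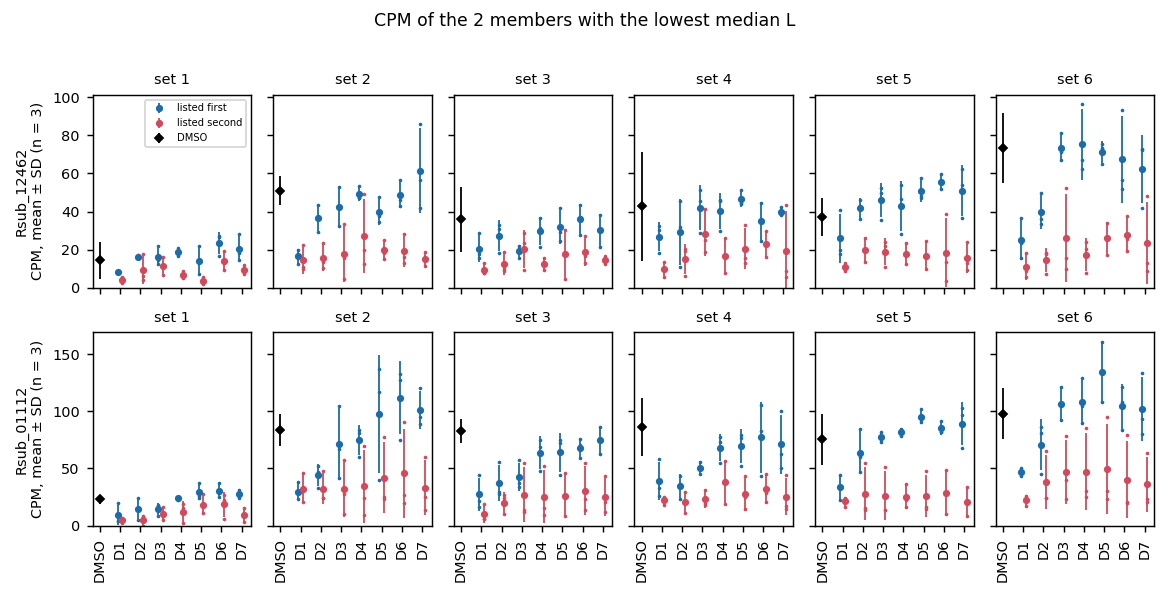
CPM of Rsub_12462 (top) and Rsub_01112 (bottom) by group (x axis, DMSO then D1 to D7) in the 6 control sets, with small dots for single libraries and large symbols with bars for the mean ± SD (n = 3). The first chemical (blue) climbs toward or past DMSO (black) from D1 on, for example to 51.0 CPM at D5 of set 5 for Rsub_12462, where the second chemical (red) is at 16.6 CPM.

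The second chemical was compared with the first over D2 to D7, a comparison added after those levels had been seen. It used 36 treated libraries a set, none of which entered the rule, and edgeR as above. Members were lower in the second chemical in 6 of 6 sets, and 0 members were higher by edgeR, by DESeq2 or at an unadjusted p under 0.05. In Gabapentin 38 members were lower than in 1(2H)-Phthalazinone, with 87 tested, where 5.21% of all genes were called lower and 5.67% higher. In 2-tert-butyl-4-methoxyphenol 70 were lower than in Metribuzin-DA, with 97 tested, against 14% of all genes lower and 14.7% higher. In 4-chlorophenyl methyl sulfone 69 were lower than in Hydrochlorothiazide, with 94 tested, against 11.8% lower and 12.1% higher. In Fipronil carboxamide 54 were lower than in Cetirizine Hydrochloride, with 95 tested, against 4.09% lower and 3.93% higher. In cis-nonachlordane 91 were lower than in Fexofenadine, with 99 tested, against 14% lower and 12.7% higher. In 3,4-Dichlorophenyl isocyanate 88 were lower than in Metolachlor OA, with 99 tested, against 11.4% lower and 11.1% higher. At D7 alone the members called lower were 0, 13, 14, 6, 54 and 25 in sets 1 to 6, so the calls of set 1 were lost and those of the other sets were fewer. That comparison sets 3 libraries against 3, and the share of all genes called in it is not given here. A weaker difference at D7 cannot be told apart from a loss of power.

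The median log2 difference of the tested members was -0.51 in set 1, -0.67 in set 2, -0.66 in set 3, -0.51 in set 4, -0.97 in set 5 and -0.80 in set 6. Of the 100 members, 26 were called lower in 6 sets, 22 in 5, 20 in 4, 15 in 3, 8 in 2, 3 in 1 and 6 in 0. Of the 9381 genes, 0.927% were called lower in 6 sets, 1.56% in 5, 2.30% in 4, 3.58% in 3, 5.72% in 2, 15.7% in 1 and 70.2% in 0, where a gene not tested in a set counts as not called. The chemical and its place in the label cannot be told apart, since each chemical has 1 place.

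Rsub_03387 had the largest fall in 2 sets. In set 2 its 18 libraries of D2 to D7 ran from 43.5 to 89.3 CPM (median 52.7) in Metribuzin-DA and from 6.24 to 24.5 CPM (median 11.3) in 2-tert-butyl-4-methoxyphenol. The groups did not overlap, and the log2 difference was -2.07 ± 0.146 (SE; edgeR adjusted p = 8.66e-16). The standard errors and p-values of this comparison count the 18 libraries of a chemical as independent. The members' sums followed the replicate letter, so the spread may be understated. In set 6 it ran from 78.6 to 167 CPM (median 125) in Metolachlor OA and from 16.9 to 72.3 CPM (median 27.2) in 3,4-Dichlorophenyl isocyanate, again without overlap, with a log2 difference of -1.91 ± 0.155 (edgeR adjusted p = 2.01e-12). Its highest values in the second chemical came from replicate A, for example 72.3 CPM at D4 beside 22.1 and 27.0 CPM in B and C.

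Rsub_11707 led in set 5, at 16.9 to 56.4 CPM (median 37.6) in Fexofenadine and 2.10 to 20.9 CPM (median 5.38) in cis-nonachlordane. The ranges overlapped only through replicate A of the second chemical and 1 library of the first, and the log2 difference was -2.13 ± 0.200 (edgeR adjusted p = 1.06e-11). Rsub_03161 led in set 3 at low counts, at 3.61 to 23.3 CPM (median 11.5) in Hydrochlorothiazide and 0 to 14.8 CPM (median 4.11) in 4-chlorophenyl methyl sulfone, with a log2 difference of -1.50 ± 0.284 (edgeR adjusted p = 6.25e-05).

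Rsub_01782 led in sets 1 and 4, and replicate A stood above B and C at each of D2 to D7 in the first chemical of both. In 1(2H)-Phthalazinone replicate A was at 76.6 to 117 CPM over D2 to D7, and B and C were at 5.11 to 29.9 CPM. In Gabapentin replicate A was at 2.15 to 14.1 CPM and B and C were at 0 to 7.40 CPM, so the letters overlapped there, and its replicate A lay wholly below replicate A of 1(2H)-Phthalazinone. The log2 difference was -3.26 ± 0.443 (edgeR adjusted p = 1.34e-07). In set 4, replicate A of Cetirizine Hydrochloride was at 8.51 to 29.7 CPM and B and C at 0 to 7.40 CPM, and the log2 difference to Fipronil carboxamide was -1.64 ± 0.481 (edgeR adjusted p = 0.0205). That call was lost without replicate B, with an adjusted p of 0.144, and in DESeq2, with an adjusted p of 0.112. Rsub_01782 was also the member with the highest L at D1 of 1(2H)-Phthalazinone, 1.05, where DMSO was at 79.0, 11.9 and 5.48 CPM and D1 at 119, 62.9 and 25.3 CPM.

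The replicate letters did not carry the difference equally. Within replicate A the median difference of the members in CPM + 2 ran from -0.47 in set 5 to 0.05 in set 2, with 48 to 88 of 100 members below 0. Within replicate B it ran from -1.16 to -0.40, with 87 to 99 below 0, and within replicate C from -1.18 to -0.64, with 94 to 98 below 0. If a letter marks a shared culture or plate, which the labels do not say, 18 libraries are fewer than 18 independent ones. The next counts come from smaller fits, for which the share of all genes called is not given here. Without replicate B the members called lower were 23, 35, 43, 32, 79 and 45 in sets 1 to 6. Without replicate C they were 27, 41, 56, 20, 82 and 59, and without replicate A 38, 86, 70, 66, 94 and 92. Without the D2 replicate B of Cetirizine Hydrochloride set 4 had 64.

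**Figure D5:**
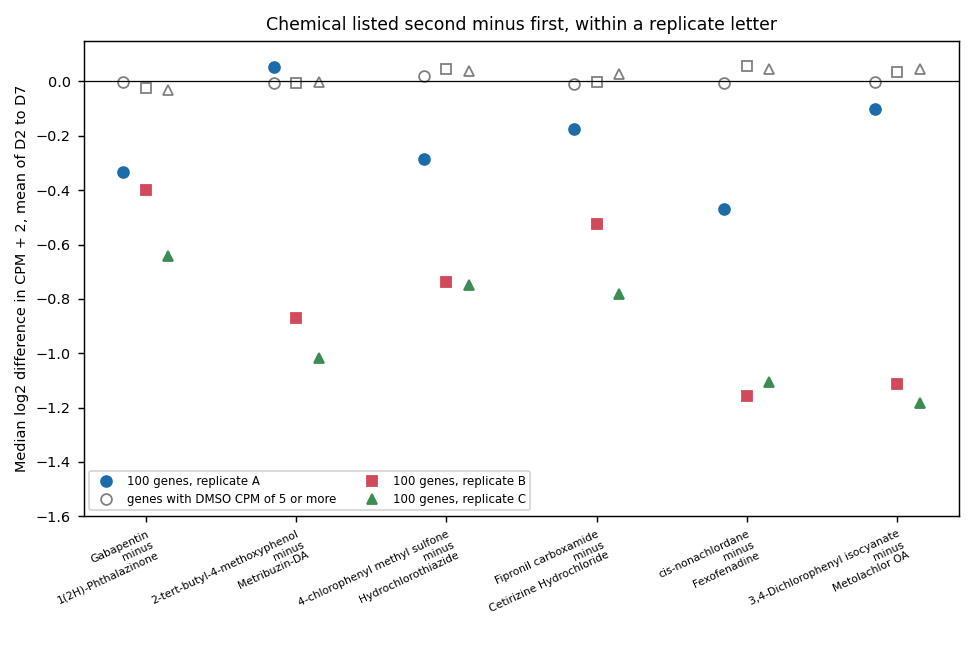
Median over the 100 genes of the log2 difference in CPM + 2 between the second and the first chemical of a set, mean of D2 to D7, computed within each replicate letter (filled symbols) and for the 9381 genes (open grey symbols). Replicate A lies between -0.47 and 0.05, replicates B and C between -1.18 and -0.40, and the open symbols lie near 0.

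At D1 itself the 2 chemicals of a set were compared on treated libraries alone. These D1 libraries entered the rule, so the members' counts are a description, and the test is read on the genes chosen without that control set, which was added once the results were known. For those genes the median log2 difference of the second chemical from the first was below 0 in 6 of 6 sets, from -0.23 in set 2 to -0.74 in set 1. They were called lower in 15, 10, 1, 6, 0 and 2 cases and higher in 2, 7, 2, 0, 0 and 1 cases in sets 1 to 6, with 87, 98, 93, 95, 99 and 100 tested. Of all genes, 3.01%, 6.62%, 0.194%, 2.36%, 0.0414% and 0.985% were called lower. Those called higher were 3.42%, 9.15%, 0.237%, 3.82%, 0.0724% and 1.82%. Counting both directions, the listed genes lay near all genes in sets 2, 4 and 6. In sets 4 and 5, DESeq2 likewise called 0 of these genes higher, and in set 5 it called 0 lower. At an unadjusted p under 0.05 the genes lower and higher were 27 and 1 in set 4 and 27 and 4 in set 5. Of all genes, 1763 of 9335 and 964 of 9668 had such a p in these sets, in either direction.

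The members themselves gave similar counts. In set 1, 15 members were lower in Gabapentin and 1 was higher, with 88 tested, where 3.01% of all genes were called lower and 3.42% higher. In set 2, 10 were lower in 2-tert-butyl-4-methoxyphenol and 5 higher, with 98 tested, against 6.62% and 9.15%. In set 3, 1 was lower in 4-chlorophenyl methyl sulfone and 1 higher, with 94 tested, against 0.194% and 0.237%. In set 4, 6 were lower in Fipronil carboxamide and 0 higher, with 95 tested, against 2.36% and 3.82%. DESeq2 likewise called 0 higher in set 4, and 1 was higher at an unadjusted p under 0.05. In set 5, 0 were called in cis-nonachlordane in either direction by edgeR or DESeq2, with 99 tested, against 0.0414% and 0.0724% of all genes called. At an unadjusted p under 0.05, 26 members were lower and 3 higher, beside 964 of 9668 genes in either direction. In set 6, 2 were lower in 3,4-Dichlorophenyl isocyanate and 1 higher, with 99 tested, against 0.985% and 1.82%. Counting both directions, 18.2% of the tested members and 6.43% of all genes were called in set 1, but 15.3% and 15.8% in set 2, 6.32% and 6.18% in set 4 and 3.03% and 2.81% in set 6, where the members' share was near that of all genes. Without replicate B, the members called lower were 2, 1, 0, 1, 0 and 0 in sets 1 to 6, in smaller fits whose share of all genes called is not given here. The members named next were each also chosen without the control set they are tested in.

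At D1, Rsub_12849 went against the order of the second chemical below the first. In set 6 it was at 670, 700.0 and 691 CPM in DMSO, at 267, 279 and 280.4 CPM at D1 of Metolachlor OA, and at 685, 547 and 710.1 CPM at D1 of 3,4-Dichlorophenyl isocyanate. Only the first chemical lay wholly below DMSO, and L in the second was -0.085. The second exceeded the first by 1.23 ± 0.219 on the log2 scale (edgeR adjusted p = 0.000189). In set 3 it was at 72.4, 46.9 and 45.1 CPM at D1 of Hydrochlorothiazide and at 117, 116 and 129.8 CPM at D1 of 4-chlorophenyl methyl sulfone, 1.14 ± 0.210 higher (edgeR adjusted p = 0.0011). The call in set 3 was lost without replicate B or C, with adjusted p-values of 0.229 and 0.139. Over D2 to D7 the same gene was among the 26 members called lower in the second chemical in 6 sets.

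Rsub_04880 had the largest difference at D1 between 2 chemicals, at 1.14, 0 and 3.26 CPM in 1(2H)-Phthalazinone and at 19.7, 37.3 and 43.4 CPM in Gabapentin, a log2 difference of 4.29 ± 0.663 (edgeR adjusted p = 1.4e-05). Rsub_02755 moved the other way in the same set, from 38.7, 26.8 and 25.3 CPM to 9.44, 0.849 and 0.819 CPM, a log2 difference of -2.94 ± 0.887 (edgeR adjusted p = 0.0331). That call was lost without replicate B or C, with adjusted p-values of 0.224 and 0.0906, and in DESeq2, with 0.183.

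In set 2, Rsub_01913 was at 0.967, 5.10 and 4.19 CPM at D1 of Metribuzin-DA and at 24.7, 15.2 and 21.6 CPM at D1 of 2-tert-butyl-4-methoxyphenol, 2.63 ± 0.693 higher on the log2 scale (edgeR adjusted p = 0.00519, and 0.0521 without replicate B). Rsub_02449 was at 7.74, 8.17 and 10.5 CPM and at 1.03, 2.28 and 0.772 CPM, with a log2 difference of -2.48 ± 0.747 (edgeR adjusted p = 0.0163). It missed the threshold without replicate B, at 0.0503, and without C, at 0.163. The groups did not overlap for either gene.

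Each of the remaining named calls was lost without either of 2 letters. Rsub_03050 was at 171, 171 and 125 CPM at D1 of Hydrochlorothiazide and at 90.7, 79.8 and 80.0 CPM at D1 of 4-chlorophenyl methyl sulfone, with a log2 difference of -0.91 ± 0.222 (edgeR adjusted p = 0.0371, 0.566 without replicate B and 0.0634 without C). Rsub_07841 was at 12.5, 13.6 and 7.88 CPM at D1 of Cetirizine Hydrochloride and at 1.03, 2.23 and 5.73 CPM at D1 of Fipronil carboxamide, with a log2 difference of -1.92 ± 0.622 (edgeR adjusted p = 0.0485, 0.275 without replicate A, 0.387 without B and 0.0518 with RLE scaling). Rsub_12641 was at 61.5, 38.1 and 27.4 CPM at D1 of Metolachlor OA and at 22.2, 6.51 and 15.0 CPM at D1 of 3,4-Dichlorophenyl isocyanate, with a log2 difference of -1.52 ± 0.411 (edgeR adjusted p = 0.0267, 0.197 without replicate B and 0.123 without C).

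The levels labelled next to D1 were last set against those labelled farthest from it, as the mean of D2 and D3 minus the mean of D6 and D7, on the 18 libraries of D2 to D7 of a chemical. Neither D1 nor DMSO entered this test. The members' medians were below 0 in 10 of 12 chemicals, and the count of calls was small in each. In Metribuzin-DA 9 members were lower at D2 and D3, with 94 tested, where 0.518% of all genes were called lower and 0.386% higher. In Gabapentin 4 were lower, with 68 tested, against 1.8% lower and 0.739% higher, and in Cetirizine Hydrochloride 2 were lower, with 94 tested, against 0.033% and 0.022%. In 1(2H)-Phthalazinone 1 was lower, with 86 tested, against 0.0655% and 0.186%. These 4 chemicals had 0 members called higher by edgeR or DESeq2 and 0 or 1 at an unadjusted p under 0.05. In 2-tert-butyl-4-methoxyphenol 1 was lower and 2 were higher, with 91 tested, against 0.97% lower and 2.5% higher.

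In the other 7 chemicals edgeR called 0 members in either direction. Hydrochlorothiazide had 25 of 90 tested members lower at an unadjusted p under 0.05 and 0 calls by DESeq2. Of all genes there, 0% were called at an adjusted p, and 524 of 8952 had an unadjusted p under 0.05 in either direction. Metolachlor OA had 28 of 97 at an unadjusted p and 2 by DESeq2, with 0% of all genes called and 718 of 9343 at an unadjusted p. Fexofenadine had 17 of 99 and 0, also with 0% called, and 561 of 9493 genes at an unadjusted p. The second chemicals had fewer members lower at an unadjusted p. There were 5 of 85 in 4-chlorophenyl methyl sulfone (0% of all genes called lower and 0.0221% higher) and 1 of 92 in cis-nonachlordane (0% and 0%). There were 0 of 81 in Fipronil carboxamide (0.0112% and 0.0559%) and 0 of 90 in 3,4-Dichlorophenyl isocyanate (0.0216% and 0.195%). Of all genes, 515 of 9055, 417 of 9401, 342 of 8945 and 674 of 9246 had an unadjusted p under 0.05, in that order and in either direction. Counting both directions, the members were thus near or under the share of all genes. In 4-chlorophenyl methyl sulfone 5 were lower and 0 higher, and the share of all genes in the lower direction alone is not given here. DESeq2 called 0 in these 4 chemicals. At an unadjusted p under 0.05, 2 members were higher in cis-nonachlordane and 1 in 3,4-Dichlorophenyl isocyanate. The medians of the first chemicals ran from -0.12 to -0.35. Those of the second ran from -0.31 to 0.09. The difference between first and second was not tested for this measure.

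Rsub_00547 and Rsub_10428 moved in opposite directions in 2-tert-butyl-4-methoxyphenol. Rsub_00547 was at 2.53, 0.716 and 2.59 CPM at D2 and 4.08, 2.59 and 2.75 CPM at D3, then at 9.91, 7.59 and 6.54 CPM at D6 and 7.96, 6.46 and 11.1 CPM at D7. Rsub_10428 was at 59.8, 28.6 and 37.9 CPM at D2 and 31.8, 35.3 and 27.5 CPM at D3, then at 16.0, 8.53 and 3.74 CPM at D6 and 18.8, 7.26 and 5.55 CPM at D7. Neither gene's early and late libraries overlapped. The log2 difference was -1.67 ± 0.426 for Rsub_00547 (edgeR adjusted p = 0.0215, 0.101 without replicate A and 0.337 without B) and 1.86 ± 0.313 for Rsub_10428 (edgeR adjusted p = 0.000231, and 0.057 without replicate B).

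Cetirizine Hydrochloride had Rsub_12849 at 108, 92.6 and 161 CPM at D2, 159.6, 168 and 141 CPM at D3, 203, 250.0 and 205 CPM at D6 and 219, 216 and 190.0 CPM at D7. Early and late libraries did not overlap, and the log2 difference was -0.65 ± 0.106 (edgeR adjusted p = 0.00116, and 0.26 without replicate B). The other call there, Rsub_07250, was at 9.45, 1.99 and 9.43 CPM at D2 and 32.2, 38.4 and 29.4 CPM at D6, with a log2 difference of -1.41 ± 0.273 over the 4 levels (edgeR adjusted p = 0.00945). D3, at 22.2, 17.6 and 13.5 CPM, overlapped D7, at 18.6, 37.7 and 22.8 CPM. It was lost without the D2 replicate B that stood apart, at -1.20 and an adjusted p of 0.0702, and without all of replicate B or C, at 0.647 and 0.12.

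In Metribuzin-DA, Rsub_01519 was at 13.5, 19.6 and 13.5 CPM at D2 and 29.3, 45.0 and 37.9 CPM at D7, and the log2 difference over the 4 levels was -0.98 ± 0.234 (edgeR adjusted p = 0.0285, 0.0895 without replicate B and 0.531 without C). Its D3, at 27.5, 28.5 and 11.2 CPM, overlapped D6, at 20.4, 34.1 and 52.6 CPM. Rsub_11918 had the smallest called difference there, -0.33 ± 0.0819 (edgeR adjusted p = 0.0356), from 345, 348 and 351 CPM at D2 to 396, 482 and 453 CPM at D7. Its D3, at 355, 483 and 377 CPM, overlapped D7. It missed the threshold without any 1 letter, with adjusted p-values from 0.0726 to 0.296.

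In Gabapentin, Rsub_07445 was at 57.1, 41.6 and 31.1 CPM at D2 and 75.2, 84.7 and 75.8 CPM at D6, a log2 difference of -0.66 ± 0.154 over the 4 levels (edgeR adjusted p = 0.012, 0.248 without replicate B and 0.106 without C). Its D7, at 76.3, 56.4 and 48.4 CPM, overlapped D2 and D3. Rsub_00352, the smallest called difference, was at 145, 153 and 126 CPM at D2 and 236, 195 and 191 CPM at D6, with a log2 difference of -0.36 ± 0.101 (edgeR adjusted p = 0.038). Its D7, at 215, 195 and 142 CPM, overlapped D2 and D3. It missed the threshold without any 1 letter, with adjusted p-values from 0.101 to 0.259. In 1(2H)-Phthalazinone, Rsub_04324 was at 30.4, 10.9 and 11.6 CPM at D2 and 51.2, 57.3 and 45.9 CPM at D7, with a log2 difference of -0.88 ± 0.196 (edgeR adjusted p = 0.0332, 0.52 without replicate B and 0.615 without C). Its D3 libraries, at 43.5, 49.3 and 29.6 CPM, overlapped D6 and D7.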

How the data were processed

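The authors deposited raw counts per gene, in 1 table of 24 libraries per chemical. The tools named, per the submitters' processing notes, are featureCounts 2.0.6, SAMtools 1.15.1, STAR 2.7.10a and fastp 0.23.2. Not given in the sources used here are the strand setting, any collapsing by molecular identifier, and the annotation and build of the genome. Without such collapsing, counts include PCR copies. Paralogs and genes that overlap at their ends could share reads.

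CPM divide a count by its column total. Tests used edgeR 4.0.16 in R 4.3.3 (filterByExpr, TMM, quasi-likelihood, Benjamini-Hochberg over all genes tested). The fits were also run on simulated counts of independent libraries. Those counts had no effect shared by a replicate letter, so that run cannot show how the tests behave with one. Fits held 24 libraries (D1 against DMSO), 18 (D2 to D7 of a chemical), 42 (D1 of both chemicals of a set) or 36 (D2 to D7 of both). A standard error is the log2 difference divided by the square root of F. Alternatives were DESeq2 1.42.0, RLE scaling, no filter, a replicate block, single levels and leaving out libraries.

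Members, rule and tests were chosen with earlier results of these data known. Identifiers named are the 2 lowest median L, the threshold pair, the 2 highest in DMSO, the most and fewest chemicals below 0, the extremes at D1 per chemical, and the most extreme called members per test. For the comparison of D2 to D7 it was the called member with the lowest log2 difference.

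Same-lettered libraries deviated together, by a correlation over 0.1 in every pair, in 0 of 12 D1 tests, 1 of 12 tests over D2 to D7 (cis-nonachlordane) and 0 of 12 tests between chemicals, so letters were not treated as pairs. The members' sums did follow the letter, with A highest in 42 of 42 groups of the second chemicals. The main tests leave that order out, and counts with a replicate block are given below.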

Additional observations from a re-analysis of the deposited data

Results flagged for a closer look

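The values below were singled out because 2 chemicals that share DMSO libraries differed in a direct test of the difference between them (edgeR, adjusted p under 0.05). At D1, where the libraries also entered the choice of members, 16 of 88 tested members differed in set 1 (6.43% of all genes), 15 of 98 in set 2 (15.8%), 2 of 94 in set 3 (0.430%), 6 of 95 in set 4 (6.18%) and 3 of 99 in set 6 (2.81%), counting both directions. In sets 2, 4 and 6 the members' share was near that of all genes. Over D2 to D7, where no library entered the choice, the numbers were 38 of 87 (10.9% of all genes), 70 of 97 (28.7%), 69 of 94 (23.9%), 54 of 95 (8.03%), 91 of 99 (26.7%) and 88 of 99 (22.5%) in sets 1 to 6.

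The genes with the most extreme differences at D1 were Rsub_02755 at -2.94 and Rsub_04880 at 4.29 in set 1, and Rsub_02449 at -2.48 and Rsub_01913 at 2.63 in set 2, as log2 differences of the second minus the first chemical. In set 3 they were Rsub_03050 at -0.91 and Rsub_12849 at 1.14, in set 4 Rsub_07841 at -1.92, and in set 6 Rsub_12641 at -1.52 and Rsub_12849 at 1.23.

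Over D2 to D7 the largest falls in the second chemical were those of Rsub_01782 at -3.26 in set 1 and -1.64 in set 4, Rsub_03387 at -2.07 in set 2 and -1.91 in set 6, Rsub_03161 at -1.50 in set 3 and Rsub_11707 at -2.13 in set 5. Groups of 3 libraries were not examined for single outlying libraries by a test.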

How the results depend on the processing

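The cause of the shifts below was not tested. The share of all genes called in each of these refits is not given here. A higher or lower count below is therefore not a result about the listed genes alone. The 100 genes themselves shared 71 to 96 of 100 members with the list under 10 other forms of the rule, and 1 named value changed sign, the median L of Rsub_04880, which ran from -1.03 without replicate A to 0.28 without replicate C. With the replicate block the genes called lower at D1 in a left-out chemical were 14 in 1(2H)-Phthalazinone, 13 in Metribuzin-DA, 42 in 2-tert-butyl-4-methoxyphenol, 19 in Hydrochlorothiazide, 30 in Fexofenadine, 56 in cis-nonachlordane, 49 in Metolachlor OA and 67 in 3,4-Dichlorophenyl isocyanate, and within 1.5 times the main number elsewhere. With no filter they were 11, 13, 16, 24, 48, 46 and 55 in 1(2H)-Phthalazinone, Metribuzin-DA, Hydrochlorothiazide, Fexofenadine, cis-nonachlordane, Metolachlor OA and 3,4-Dichlorophenyl isocyanate, and 4 in Cetirizine Hydrochloride. DESeq2 gave 24 in 4-chlorophenyl methyl sulfone and 13 in cis-nonachlordane. Leaving out 1 letter gave 0 to 11, 24 to 35, 0 to 7, 3 to 38, 1 to 11, 9 to 30, 0 to 1, 6 to 17, 0 to 12, 0 to 43, 7 to 24 and 0 to 48, the 2 chemicals of set 1 first and those of set 6 last.

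For D2 and D3 against D6 and D7, the replicate block gave 4 lower in 1(2H)-Phthalazinone, 8 in Gabapentin, 17 in Metribuzin-DA, 2 (and 4 higher) in 2-tert-butyl-4-methoxyphenol, 4 in Hydrochlorothiazide, 6 in Cetirizine Hydrochloride, 1 in Fexofenadine, 14 in Metolachlor OA and 1 (and 1 higher) in 3,4-Dichlorophenyl isocyanate. In cis-nonachlordane, where letters deviated together, the count stayed 0. With no filter the counts lower were 3, 7, 16, 2, 10, 1 and 9 in 1(2H)-Phthalazinone, Gabapentin, Metribuzin-DA, Hydrochlorothiazide, Cetirizine Hydrochloride, Fexofenadine and Metolachlor OA, with 4 higher in 2-tert-butyl-4-methoxyphenol. DESeq2 gave 2 each in 1(2H)-Phthalazinone, Gabapentin and Metolachlor OA. D2 minus D7 alone gave 0 in Gabapentin, 2 in Metribuzin-DA, 0 lower in 2-tert-butyl-4-methoxyphenol and 1 in Cetirizine Hydrochloride, and the fit on all 24 libraries gave 0 in 1(2H)-Phthalazinone. Without 1 letter the counts lower ran from 0 to 3 in 1(2H)-Phthalazinone and Cetirizine Hydrochloride, 0 to 4 in Gabapentin, 1 to 6 in Metribuzin-DA, 0 to 1 in 2-tert-butyl-4-methoxyphenol, 0 to 2 in Hydrochlorothiazide and 0 to 7 in Metolachlor OA, and the count higher from 0 to 3 in 2-tert-butyl-4-methoxyphenol and 0 to 1 in 3,4-Dichlorophenyl isocyanate. Without the D2 replicate B, Cetirizine Hydrochloride kept 1.

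For D1 of 2 chemicals, the block gave 26, 7, 10, 5 and 9 lower in sets 1, 3, 4, 5 and 6, no filter 25, 9, 13, 2 and 6, and DESeq2 4 in set 6. Leaving out 1 letter gave 2 to 16, 0 to 16, 0 to 1, 1 to 8, 0 to 4 and 0 to 10 lower, with 3 to 5 higher in set 2 and 0 to 1 in set 3, and genes chosen without the set gave 2 higher each in sets 1 and 3. For D2 to D7 of 2 chemicals, D7 alone gave 0, 13, 14, 6, 54 and 25 in sets 1 to 6, and leaving out 1 letter gave 23 to 38, 35 to 86, 43 to 70, 20 to 66, 79 to 94 and 45 to 92. The block changed none of these last counts by over 1.5 times. RLE scaling changed none of the counts by over 1.5 times.

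With 3 libraries a group and about 1 count per CPM, the scarce members rest on few counts in a library. From 68 to 100 of 100 genes passed the filter on low counts in a test.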
